A study of Mus musculus with 3 samples.

Results

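The 6 genes Dnmt1, Dnmt3a, Dnmt3b, Tet1, Tet2 and Tet3, which write and remove DNA methylation, were followed on a tiling array that measured methylated DNA in mouse frontal cortex. They are covered by the array's non-control probes that lie in 6 windows of mouse build mm9 (NCBI37), 1 window for each gene. The windows ran on chromosome 9 from 20.7 to 20.77 Mb for Dnmt1, on chromosome 12 from 3.8 to 3.92 Mb for Dnmt3a, on chromosome 2 from 153.46 to 153.52 Mb for Dnmt3b, on chromosome 10 from 62.26 to 62.35 Mb for Tet1, on chromosome 3 from 133.12 to 133.22 Mb for Tet2 and on chromosome 6 from 83.3 to 83.43 Mb for Tet3. Probes whose starts lay at most 500 bp apart were joined into tiled regions of at least 3 probes. The windows held 198 of the 409559 probes that had a value on all arrays, and 17 of the 28880 tiled regions. No member probe lay outside a tiled region. The study made 3 pools of frontal cortex DNA, each of 3 male C57BL/6 mice that were naive and aged 2 months, with no treatment, genotype or condition, so all samples form 1 group. DNA of each pool was sonicated and precipitated with an antibody against 5-methylcytosine that, per the labels, does not recognise hydroxymethylated DNA. Bound DNA (Cy5) and input DNA (Cy3) were amplified and hybridised together on 1 array for each pool, always in the same dye orientation. The titles number the arrays 1 to 3 but the descriptions give all of them the number 1, so if arrays shared a pool the errors would cover only the spread between arrays. A tissue pool mixes neurons and glia, and no marker of a cell type can be read from genomic DNA here.

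The Dnmt proteins write 5-methylcytosine and the Tet proteins oxidise it. Dnmt1 is the maintenance methyltransferase, which copies methylation onto the new strand after replication, whereas Dnmt3a and Dnmt3b methylate DNA de novo. Dnmt3a is the main de novo enzyme of postnatal neurons, where it also places methylation outside CpG sites, and Dnmt3b acts mostly in early embryos. Tet1, Tet2 and Tet3 convert 5-methylcytosine to 5-hydroxymethylcytosine, a base that is abundant in brain, and further oxidised products are removed by base excision repair. Several of these genes use alternative first exons, among them an oocyte first exon of Dnmt1 and a promoter inside Dnmt3a that drives the short isoform Dnmt3a2. The measurements here concern the methylated DNA found at the genes themselves, not the amount or activity of their products.

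The letters before the transcription starts show how unequal the genes are in the CpG sites that such an antibody can bind. The RefSeq promoter table used here is on build GRCm38.p6, another build than the arrays, and lists 10 starts for the 6 genes, with 3 each for Dnmt1 and Dnmt3a and 1 each for the others. No tiled region could therefore be assigned to a start, and the sequences describe the genes, not the probes. The following stretches are the 250 bases before a start, 5′ to 3′ on the strand of the gene, with each CpG in capitals. They were chosen to show the CpG-poor and CpG-rich ends of the range, alternative starts of Dnmt1 and Dnmt3a, and Tet1, which held the highest tiled region. On GRCm38.p6 they lie at chr9:20959889-20960138 and chr9:20952980-20953229 (minus strand), chr12:3806730-3806979 and chr12:3891494-3891743 (plus strand), chr10:62887325-62887574 (minus strand) and chr3:133544391-133544640 (minus strand).
Dnmt1 start 1: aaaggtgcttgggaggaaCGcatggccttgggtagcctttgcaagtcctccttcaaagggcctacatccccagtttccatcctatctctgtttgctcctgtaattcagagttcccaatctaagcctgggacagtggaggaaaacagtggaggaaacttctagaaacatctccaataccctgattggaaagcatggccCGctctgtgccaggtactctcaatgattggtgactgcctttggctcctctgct
Dnmt1 start 2: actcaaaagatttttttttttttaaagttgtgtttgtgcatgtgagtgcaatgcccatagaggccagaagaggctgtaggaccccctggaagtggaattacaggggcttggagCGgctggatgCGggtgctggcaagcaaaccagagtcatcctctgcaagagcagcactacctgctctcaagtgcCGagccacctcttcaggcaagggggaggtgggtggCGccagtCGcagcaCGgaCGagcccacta
Dnmt3a start 1: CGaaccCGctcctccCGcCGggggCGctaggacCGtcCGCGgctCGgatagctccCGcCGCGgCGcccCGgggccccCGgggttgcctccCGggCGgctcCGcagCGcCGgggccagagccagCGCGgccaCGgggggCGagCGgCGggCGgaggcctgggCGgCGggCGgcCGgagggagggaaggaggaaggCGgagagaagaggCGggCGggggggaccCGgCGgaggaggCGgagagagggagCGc
Dnmt3a start 3: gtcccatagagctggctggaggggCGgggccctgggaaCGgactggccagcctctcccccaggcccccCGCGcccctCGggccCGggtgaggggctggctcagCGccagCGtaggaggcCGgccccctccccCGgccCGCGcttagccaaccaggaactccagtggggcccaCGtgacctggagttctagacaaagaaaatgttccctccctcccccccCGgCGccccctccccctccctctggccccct
Tet1 start 1: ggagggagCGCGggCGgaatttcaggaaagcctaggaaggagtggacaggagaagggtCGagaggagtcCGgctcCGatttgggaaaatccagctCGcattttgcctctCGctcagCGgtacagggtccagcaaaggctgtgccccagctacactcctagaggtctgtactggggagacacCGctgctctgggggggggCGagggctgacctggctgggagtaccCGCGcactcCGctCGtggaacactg
Tet2 start 1: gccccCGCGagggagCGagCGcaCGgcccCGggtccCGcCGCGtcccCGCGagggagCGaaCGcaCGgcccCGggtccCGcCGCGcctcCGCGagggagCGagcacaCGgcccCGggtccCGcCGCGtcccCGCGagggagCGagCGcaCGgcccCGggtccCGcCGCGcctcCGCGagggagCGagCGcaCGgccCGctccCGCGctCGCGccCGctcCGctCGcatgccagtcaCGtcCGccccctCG

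The stretch before the first Dnmt1 start held 2 CpGs, and 81.2% of the 32851 promoters in the table held at least as many. The stretches before the other two Dnmt1 starts held 7 and, at the more downstream one, 26. In Dnmt3a the first start was preceded by 38 CpGs, the next by 40 and the last, inside the gene, by 15. Tet2 stood at the other end, with 51 CpGs, a number that only 0.067% of the promoters reached. Tet1 had 15 CpGs, Tet3 17 and Dnmt3b 21, against a median of 6 over the table. None of the 10 stretches held the TATA box letters TATAAA on either strand, which 12.4% of all promoters in the table did. No match means only that these letters are not in these 250 bases.

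**Figure D1:**
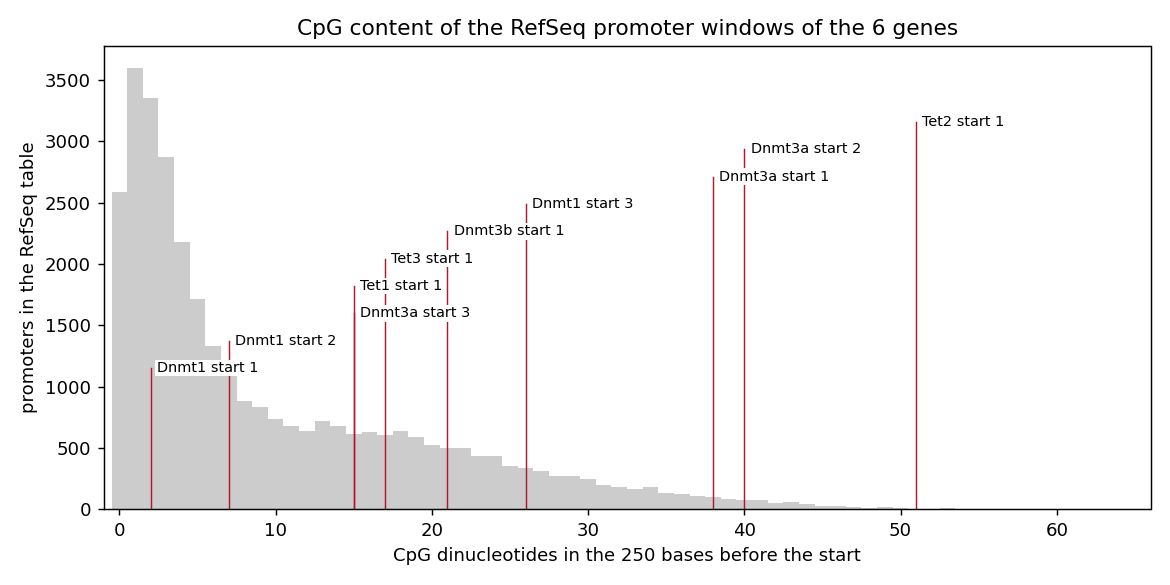
CpG dinucleotides in the 250 bases before each RefSeq transcription start (x axis, count) against the number of promoters in the table with that count (y axis, grey bars, 32851 promoters). Red lines mark the 10 starts of the 6 genes, from 2 CpGs at the first Dnmt1 start to 51 at Tet2; their heights only separate the labels.

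All levels below are bound over input DNA on a log2 scale, set against the median probe of the array, so 0 stands for the median probe and not for unmethylated DNA. Fragments with more methylated CpGs are bound more readily, so a ratio is no percentage of methylation. Errors are SDs over 3 arrays, and a region, probe or difference was called where limma's 1-group fit against 0 gave a Benjamini-Hochberg adjusted p under 0.05 over all such features of the array. The arrays had 420288 spots each, bound DNA was well above background at 47.3% to 65.9% of probes, and Pearson's r between arrays across probes, which are not independent replicates, was 0.73 to 0.77. The number of arrays limits the precision of every value. The zero point matters for the sign of a level. The most common value (the mode) was 0.70, 0.81 and 0.64 higher than the median on arrays 1 to 3, and a change of zero shifts every region of an array equally, so differences between regions do not depend on it. A probe whose bound DNA was below background has only an upper limit, and where both channels were below background there was no measured ratio. A filter that keeps only probes with both channels above background removes probes with little bound DNA, so it favours higher levels by its construction. A filter on input alone removes probes with little input DNA, so it favours lower levels by its construction.

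Across the 17 regions, 4 were higher than the median probe, 5 were lower and 8 did not pass the threshold (limma adjusted p). Over all tiled regions of the array 28% were higher and 38.1% lower, 66% in either direction. The 4 higher regions were the most upstream regions of Tet1, Dnmt3a and Tet2 and the single region of Dnmt3b. The lower regions were Dnmt1 regions 1 and 3, Dnmt3a regions 4 and 5 and Tet1 region 2, and neither region of Tet3 was called. The median member region stood at 0.08, against -0.11 over all regions. With the mode as zero, 1 member region was higher (Tet1 region 1) and 14 were lower, and with the authors' log2 ratios, centred on their median, 8 were higher and 1 was lower. Regions are numbered from the upstream to the downstream end on the strand of the gene, as the RefSeq table gives it.

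**Figure D2:**
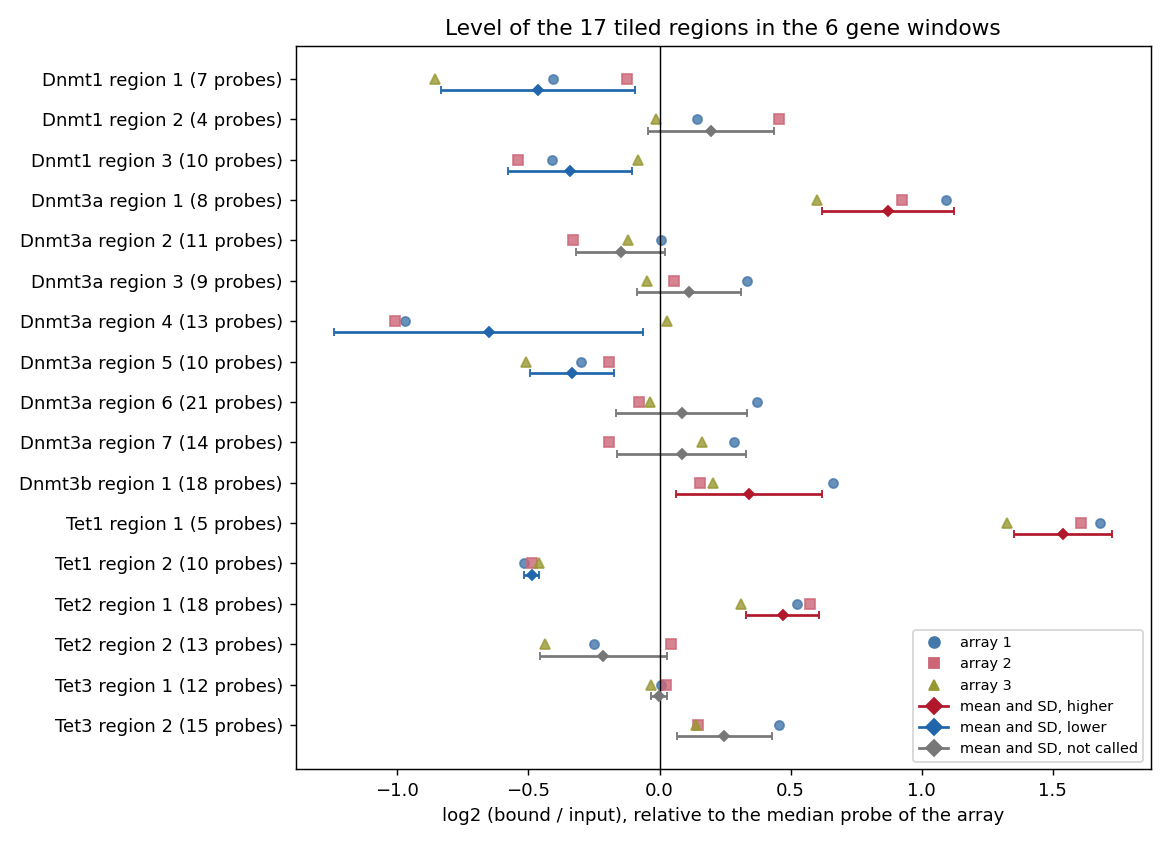
Level of each of the 17 tiled regions (x axis, log2 bound over input relative to the median probe of the array; 0 is the median probe), with 1 symbol for each array and the mean and SD below it, coloured by the limma call. Tet1 region 1 lies farthest to the right on all 3 arrays, and Dnmt3a region 4 has 1 array near 0 and the other two near -1.

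Dnmt1, the maintenance enzyme, had 3 tiled regions, of which the 2 outer ones were lower than the median probe. Region 1 (chr9:20757938-20758534, 7 probes) stood at -0.41, -0.12 and -0.86 on arrays 1 to 3. It was below the median probe on every array, by 1.38-fold on average (-0.46 ± 0.37, n = 3, limma adjusted p = 0.0138), and bound DNA was above background in 12 of its 21 probe measurements. Without array 3 its level was -0.27 and it was no longer called (limma adjusted p = 0.15). The call was also lost with the median over probes (-0.20, limma adjusted p = 0.29) and with the authors' log2 ratios (-0.37, limma adjusted p = 0.060). Region 2 (chr9:20757134-20757449, 4 probes) lies 944.5 bp away, midpoint to midpoint, and had 0.14, 0.46 and -0.01, with a mean of 0.20 ± 0.24 that was not called (limma adjusted p = 0.198). It was called higher with loess (0.62, limma adjusted p = 0.0011), with the authors' log2 ratios (0.31, limma adjusted p = 0.0231) and with the filter on input alone (0.46, limma adjusted p = 0.0031), and lower with the mode as zero (-0.52, limma adjusted p = 0.00082). The 2 neighbours thus lie on opposite sides of the median probe on arrays 1 and 2 and differed on all 3 arrays, by -0.55, -0.58 and -0.84 (region 1 minus region 2, -0.66 ± 0.16, limma adjusted p = 0.0028). That difference kept its sign when a region was summarised by the median of its probes, at -0.50, but was not called (limma adjusted p = 0.052).

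Dnmt1 region 3 (chr9:20702847-20703936, 10 probes) lies more than 50 kb downstream of the others, on the side where Eif3g, a subunit gene of a translation initiation factor, is the next coding gene in RefSeq, and which of the genes it belongs to was not analysed here. It stood at -0.41, -0.54 and -0.08 (-0.34 ± 0.24, n = 3, limma adjusted p = 0.0323), below the median probe on all 3 arrays, with bound DNA above background in 12 of 30 measurements. The call was lost without array 1 (-0.31, limma adjusted p = 0.064) and without array 2 (-0.24, limma adjusted p = 0.29). The sign turned with loess normalisation (0.12, limma adjusted p = 0.36). With normexp the level was -0.0053 (limma adjusted p = 0.92) and with the filter on input alone, over 5 probes, -0.11 (limma adjusted p = 0.48). Region 2 was higher than region 3 by 0.55, 1.00 and 0.07 (0.54 ± 0.47, limma adjusted p = 0.0226), a difference that array 3 nearly lacked and that was not called without array 2 (0.31, limma adjusted p = 0.28). With normexp it was 0.095 (limma adjusted p = 0.21) and with only the probes above background in both channels 0.066 (limma adjusted p = 0.69).

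Dnmt3a, the de novo enzyme of postnatal neurons, was tiled at 7 places with 86 probes, the most of the 6 genes. Region 1 (chr12:3805326-3806447, 8 probes), the most upstream, stood at 1.09, 0.92 and 0.60. It was 1.83-fold above the median probe (0.87 ± 0.25, n = 3, limma adjusted p = 9.29e-05), and 10.9% of all regions of the array were higher. Bound DNA was above background in 19 of its 24 measurements. All 3 arrays were above the median probe, but with the mode as zero the level was 0.15 and was not called (limma adjusted p = 0.30). Region 4 (chr12:3884425-3885618, 13 probes) was the lowest of the gene, at -0.97, -1.01 and 0.03. Its mean of -0.65 ± 0.59 was called (limma adjusted p = 0.0070), but array 3 stood at the median probe, and without it the level was -0.99. Bound DNA was above background in 7, 2 and 6 of its 13 probes on arrays 1 to 3, so much of its level is only an upper limit. With loess it was -0.34 and with the authors' log2 ratios -0.35, and neither was called (limma adjusted p = 0.11 and 0.090). Region 5 (chr12:3890557-3891889, 10 probes) had -0.30, -0.19 and -0.51 (-0.33 ± 0.16, limma adjusted p = 0.0291), with bound DNA above background in 19 of 30 measurements. All 3 arrays were below the median probe, but the call was lost without array 2 (-0.40, limma adjusted p = 0.066) and without array 3 (-0.25, limma adjusted p = 0.18), and the authors' log2 ratios put it at -0.0018 (limma adjusted p = 0.99).

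The other Dnmt3a regions did not pass the threshold, with means from -0.15 to 0.11. Region 2 (chr12:3859819-3860926) had 0.01, -0.33 and -0.12, and region 3 (chr12:3865286-3866325) had 0.33, 0.05 and -0.05. Region 6 (chr12:3893619-3895759), the longest with 21 probes, had 0.37, -0.08 and -0.04, and region 7 (chr12:3905631-3906988) had 0.28, -0.19 and 0.16. Each of the 4 had arrays on both sides of the median probe. Other settings called 3 of them higher. With the authors' log2 ratios regions 3, 6 and 7 stood at 0.31, 0.40 and 0.41 (limma adjusted p = 0.0267, 0.0101 and 0.0177). With loess region 3 stood at 0.31 (limma adjusted p = 0.0284), and with normexp region 7 at 0.13 (limma adjusted p = 0.0407). With only the 6 probes above background in both channels region 7 stood at 1.02 (limma adjusted p = 1.87e-14). With the mode as zero all 4 were lower, from -0.87 to -0.60. Their means hide large differences along the regions, which are described further on. RefSeq places 2 long non-coding RNA genes over Dnmt3a, Dnmt3aos and Gm31623, and the arrays, which measure DNA without strand, cannot tell their sequence from that of Dnmt3a.

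Dnmt3b, the other de novo enzyme, had a single region (chr2:153474001-153475511, 18 probes). It stood at 0.66, 0.16 and 0.21 on arrays 1 to 3. All 3 arrays were above the median probe, by 1.27-fold on average (0.34 ± 0.28, n = 3, limma adjusted p = 0.0388), and bound DNA was above background in 34 of 54 measurements. The call was lost without array 1, where the level was 0.18 (limma adjusted p = 0.25). It was also lost with normexp (0.12, limma adjusted p = 0.062) and with the filter on input alone (0.29, limma adjusted p = 0.054). With the mode as zero the level was -0.38.

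Tet1 held the highest of the 17 regions and one of the 5 lower ones. Region 1 (chr10:62342569-62343087, 5 probes), the upstream one, stood at 1.68, 1.61 and 1.33. It lay 2.90-fold above the median probe (1.54 ± 0.19, n = 3, limma adjusted p = 9.73e-07), and 3.01% of all tiled regions were higher. It was above the median probe under every alternative for which it had a value, from 0.76 with normexp to 1.86 with the authors' log2 ratios, and with the mode as zero it stood at 0.82. Bound DNA was above background in 10 of its 15 measurements, and the filter for probes above background in both channels left too few probes for a value. Region 2 (chr10:62277097-62278413, 10 probes) had -0.52, -0.49 and -0.46, the tightest of the called regions (-0.49 ± 0.03, limma adjusted p = 0.0027), with bound DNA above background in 22 of 30 measurements. Its call and direction held under all 13 alternatives run. Region 1 was the higher one on every array, though single probes of the 2 regions overlapped, and the difference of 2.20, 2.09 and 1.79 (region 1 minus region 2, 2.03 ± 0.21, limma adjusted p = 2.6e-07), or 4.07-fold, was the largest between 2 regions of 1 gene. Differences at least as large in either direction made up 5.32% of all region pairs on the array within 130 kb. RefSeq places the long non-coding RNA gene Gm51805 over Tet1.

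Tet2 had the same order of its regions as Tet1, with a mean difference of 0.69 where that of Tet1 was 2.03. Region 1 (chr3:133207147-133208570, 18 probes), the upstream one, stood at 0.52, 0.57 and 0.31. It was 1.38-fold above the median probe (0.47 ± 0.14, n = 3, limma adjusted p = 0.0043), with bound DNA above background in 29 of 54 measurements. Without array 2 it was 0.42 and not called (limma adjusted p = 0.056), and with the mode as zero it was -0.25. Region 2 (chr3:133151443-133152850, 13 probes) had -0.25, 0.04 and -0.44 and was not called (-0.22 ± 0.24, limma adjusted p = 0.158). It was called lower with normexp (-0.15, limma adjusted p = 0.0452) and with the mode as zero (-0.93, limma adjusted p = 2.74e-07). Region 1 was higher than region 2 on all 3 arrays, by 0.77, 0.53 and 0.75 (0.69 ± 0.13, limma adjusted p = 0.0020), a call that all 12 alternatives kept.

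Tet3 gave no call at the level of regions, also at an unadjusted p under 0.05. Region 1 (chr6:83391503-83392836, 12 probes) had 0.01, 0.02 and -0.03, at the median probe on each array. Region 2 (chr6:83329680-83331103, 15 probes) had 0.46, 0.15 and 0.14, above the median probe on all arrays but not past the threshold (0.25 ± 0.18, limma adjusted p = 0.0948). Their difference was -0.45, -0.12 and -0.17 (region 1 minus region 2, -0.25 ± 0.18, limma adjusted p = 0.196). With probes joined at 250 bp region 2 was called higher (0.34, limma adjusted p = 0.0483), as it was with both channels above background (0.29, limma adjusted p = 0.037). With the mode as zero it was called lower (-0.47, limma adjusted p = 0.0025). The difference between the regions has the opposite sign to the upstream minus downstream differences of Tet1 and Tet2 on all 3 arrays, though it was not called.

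Regions of 1 gene were compared in 27 pairs, of which 16 differed (limma adjusted p), against 65.1% of all pairs of tiled regions within 130 kb on the array (33% with the region at the later coordinate higher and 32.1% with it lower). The pairs share regions and are not independent. In Dnmt3a 12 of 21 pairs differed, and the upstream region 1 took part in 6 of them, since it was higher than each of the other 6 regions. The differences from it ran from 0.76 ± 0.11 against region 3 (0.76, 0.87 and 0.65 on the 3 arrays, limma adjusted p = 0.00091) to 1.52 ± 0.83 against region 4 (2.06, 1.93 and 0.57, limma adjusted p = 9.18e-05). Against region 5 the difference was 1.39, 1.12 and 1.11 (1.21 ± 0.16, limma adjusted p = 2.08e-05). All 6 had region 1 higher on every array. With loess the difference from region 3 fell to 0.17 (limma adjusted p = 0.32), and with only the probes above background in both channels the difference from region 7 was -0.08 (limma adjusted p = 0.61).

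Of the other 6 differing pairs of Dnmt3a, 4 involved region 4, whose array 3 stands apart. Region 4 was lower than region 7 by -1.26, -0.82 and -0.13 (-0.74 ± 0.57, limma adjusted p = 0.0057) and lower than region 6 by -1.34, -0.93 and 0.07 (-0.74 ± 0.72, limma adjusted p = 0.0110). Region 3 minus region 4 was 1.31, 1.06 and -0.07 (0.77 ± 0.74, limma adjusted p = 0.0093), and region 2 minus region 4 was 0.98, 0.68 and -0.15 (0.50 ± 0.58, limma adjusted p = 0.0435). In each of the 4 pairs the difference on array 3 was near 0 or of the other sign. Leaving out array 3 raised their sizes to between 0.83 and 1.19. With normexp the comparisons with regions 2, 3 and 6 were 0.085, 0.17 and -0.17 and not called (limma adjusted p = 0.27, 0.075 and 0.099). With loess those with regions 2, 6 and 7 were 0.16, -0.44 and -0.37 and not called (limma adjusted p = 0.44, 0.068 and 0.080). The comparisons with regions 3, 6 and 2 lost the call without array 2, at 0.62, -0.64 and 0.42 (limma adjusted p = 0.066, 0.058 and 0.19), and the last 2 also without array 1, at -0.43 and 0.27 (limma adjusted p = 0.059 and 0.25). The remaining pairs set region 5 below region 3 (region 3 minus region 5, 0.63, 0.25 and 0.46, limma adjusted p = 0.0278) and below region 6 (region 5 minus region 6, -0.67, -0.11 and -0.47, limma adjusted p = 0.0440). The first of these lost the call whichever array was left out (0.35, 0.55 and 0.44 without arrays 1 to 3, limma adjusted p = 0.11, 0.053 and 0.079), and the second was lost without array 1 (-0.29, limma adjusted p = 0.20) and without array 3 (-0.39, limma adjusted p = 0.13). Neither was called with normexp (0.14 and -0.14, limma adjusted p = 0.055 and 0.073) or with loess (0.35 and -0.13, limma adjusted p = 0.066 and 0.48).

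**Figure D3:**
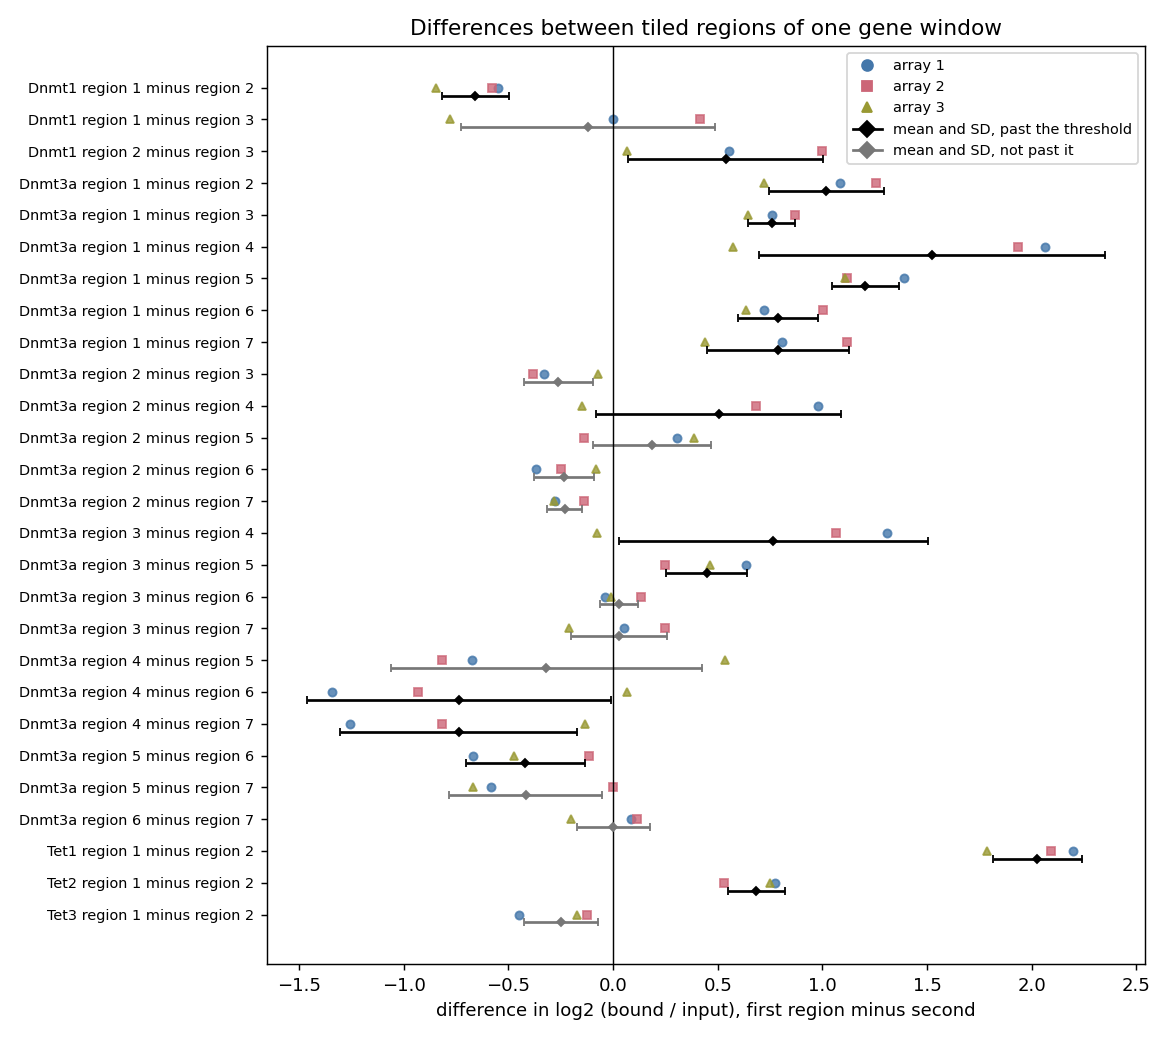
Differences between tiled regions of 1 gene (x axis, log2 units, first region minus second), with 1 symbol for each array and the mean and SD below it; black marks the 16 of 27 pairs past limma's threshold. Dnmt3a region 1 is higher than each other region of the gene on all 3 arrays, and the Tet1 pair is the largest, at 2.03.

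Upstream and downstream end segments, each a span of equal length at 1 end, could be compared in 15 regions, and 8 differed (limma adjusted p), 5 with more bound DNA downstream and 3 with less. Over the array 52.6% of such comparisons differed, a share close to that of the members. The largest member difference was in Dnmt3a region 7, whose mean lay near 0. Its upstream end stood at 1.51 ± 0.47 and its downstream end at -1.17 ± 0.24, a fall of -3.20, -2.65 and -2.21 on the 3 arrays (-2.69 ± 0.49, 6.44-fold, limma adjusted p = 6.03e-05). It fell on every array, and differences at least as large in either direction made up 1.45% of those on the array. The 4 most upstream probes of the region were each called higher, from 1.24 to 1.71, and the 3 most downstream ones lower, from -1.50 to -1.34. At the downstream end bound DNA was above background on 1 or 2 of the 3 arrays at each of these probes, so those levels are in part upper limits.

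Dnmt1 region 1 had a similar fall, from 0.02 ± 0.43 upstream to -1.67 ± 0.80 downstream (-0.73, -2.52 and -1.80, mean -1.69 ± 0.90, limma adjusted p = 0.0018). Its downstream end faces region 2, and the 2 probes nearest that neighbour, at -1.45 and -1.89, were the only probes of region 1 called lower. At the probe at -1.45 bound DNA was above background on 1 array only, so that level is in part an upper limit. The upstream end held probes at 0.85, 0.10 and -0.89, and only the one at 0.10 had both channels above background on all arrays. In Dnmt3a region 3 the 3 upstream probes were called higher, from 0.86 to 1.07, and the downstream end was lower than the upstream end by -1.36, -1.05 and -1.08 (-1.16 ± 0.17, limma adjusted p = 0.0021). The probe at 1.07 had bound DNA above background on 1 array and input on none, so its ratio was hardly measured. Region 5 of Dnmt3a ran the other way, from -1.17 ± 0.29 upstream to 0.27 ± 0.27 downstream (0.85, 1.89 and 1.56, mean 1.43 ± 0.53, limma adjusted p = 0.0014). Its 2 most downstream probes nevertheless stood below 0, and the highest value of the region was that of 1 probe (chr12:3891568-3891612) at 2.64, 3.09 and 1.19 (2.30 ± 0.99, limma adjusted p = 0.0099), whose input was above background on 1 array only. The upstream end of Dnmt3a region 5 was a pair of probes at -1.35 and -0.98. Their bound DNA was above background on 0 and 1 arrays, so that level is mostly an upper limit. When probes were joined at 250 bp, which cut these 2 regions shorter, the difference was 0.20 in region 3 and -0.20 in region 5.

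The other 4 end differences were smaller, all with more bound DNA downstream. Dnmt3a region 6 rose by 0.83, 1.34 and 0.25 (0.81 ± 0.55, limma adjusted p = 0.0267), and region 1 by 1.58, 0.68 and 0.13 (0.79 ± 0.73, limma adjusted p = 0.0428). The downstream end of region 1 was a pair of probes at -0.04 and 1.36. Their bound DNA was above background on 0 and 1 arrays and their input on 1 and 0, so this rise hardly rests on measured ratios. Region 2 of Dnmt3a rose by 0.44, 0.38 and 1.11 (0.65 ± 0.40, limma adjusted p = 0.0493), and Dnmt1 region 3 by 0.35, 0.48 and 1.11 (0.64 ± 0.41, limma adjusted p = 0.0498). These values had the same sign on every array but differed several-fold in size. All 4 lost the call without array 2, at 0.54, 0.85, 0.78 and 0.73 (limma adjusted p = 0.22, 0.10, 0.089 and 0.11). Region 1 also lost it without array 1 (0.40, limma adjusted p = 0.25), and region 2 and Dnmt1 region 3 without array 3 (0.41 for each, limma adjusted p = 0.30 and 0.30).

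**Figure D4:**
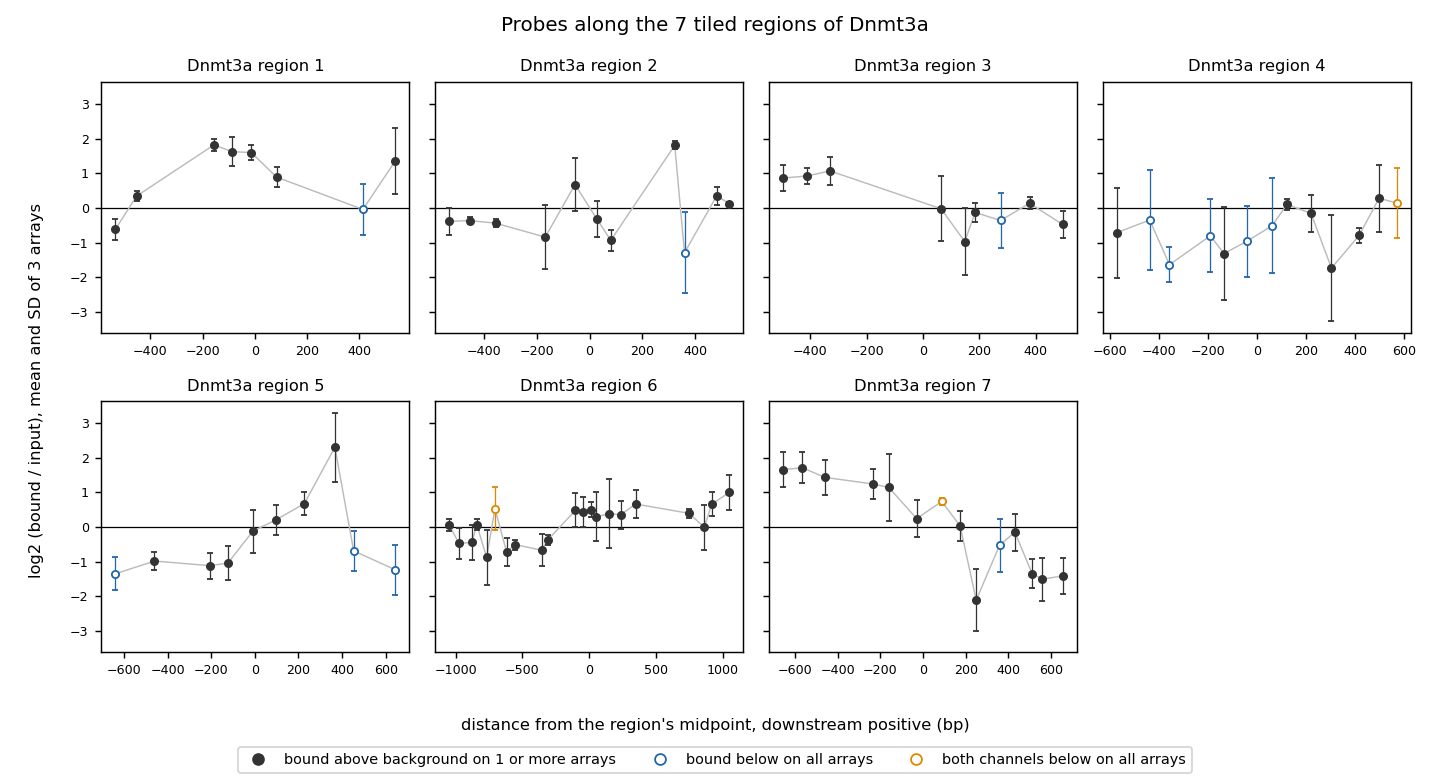
Probes along the 7 tiled regions of Dnmt3a (x axis, distance from the midpoint of the region in bp, downstream positive; y axis, log2 bound over input relative to the median probe), as means with SDs of 3 arrays. Open symbols mark probes whose bound DNA, or both channels, were below background on all arrays. Region 7 descends from about its upstream mean of 1.51 to -1.17, and region 1 peaks near its centre.

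The middle of a region was set against its edges in 13 regions, taking probes within 200 bp of the midpoint and probes more than 500 bp from it. The centre was higher in 6 and lower in none, also at an unadjusted p under 0.05 (limma adjusted p), whereas over the array it was higher in 17% and lower in 32.4%, or different in 49.5%. The counts moved with the settings. Normexp gave 3 higher and 2 lower, loess 4 and 2, the filter on input alone 4 and 2 of 9, and leaving out arrays 1, 2 and 3 in turn gave 3, 1 and 4 higher. The 7 regions that were not called had differences from -0.51 to 0.45. Tet2 region 1 had the largest difference, with a centre at 1.22 ± 0.34 and edges at -0.17 ± 0.21. The centre exceeded the edges by 1.79, 1.57 and 0.82 (1.39 ± 0.51, limma adjusted p = 0.0011), and 8 of its 18 probes were called higher. The call was kept under the 11 alternatives that gave a value, and the filter on both channels gave none. Of the edge probes only the most downstream one, at -1.39, had both channels above background on all arrays. In Dnmt3a region 1 the centre stood at 1.48 ± 0.26 against 0.37 ± 0.44 at the edges (0.63, 1.48 and 1.24, mean 1.11 ± 0.44, limma adjusted p = 0.0035), and 4 neighbouring probes there were called higher, at 1.82, 1.63, 1.60 and 0.89. With loess this difference turned to -0.43, and without array 2 it was 0.93 and not called (limma adjusted p = 0.0503). The edges of this region were 1 probe at each end, at -0.62 upstream and 1.36 downstream. The downstream one had bound DNA above background on 1 array and input on none.

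The 4 others depended more on the settings. Dnmt3a region 5 had 1.47, 1.04 and 0.41 (0.97 ± 0.54, limma adjusted p = 0.0094), and Tet2 region 2 had 1.39, 1.23 and -0.17 (0.82 ± 0.86, limma adjusted p = 0.0437). Dnmt3a region 7 had 0.59, 0.66 and 0.91 (0.72 ± 0.17, limma adjusted p = 0.0247), and Tet1 region 2 had 0.46, 0.75 and 0.61 (0.61 ± 0.14, limma adjusted p = 0.0498). In Tet2 region 2 array 3 went against the other two. Without array 1 the call was lost in Dnmt3a region 5 (0.72, limma adjusted p = 0.055), Tet2 region 2 (0.53, limma adjusted p = 0.21) and Tet1 region 2 (0.68, limma adjusted p = 0.060). Without array 2 it was lost in all 4, at 0.94, 0.61, 0.75 and 0.54 (limma adjusted p = 0.063, 0.26, 0.096 and 0.22). Without array 3 it was lost in Dnmt3a region 7 (0.62, limma adjusted p = 0.13) and Tet1 region 2 (0.61, limma adjusted p = 0.14), and without array 3 the difference in Tet2 region 2 rose to 1.31. Normexp turned the difference of Dnmt3a region 5 to -0.07 and brought those of Dnmt3a region 7 and Tet1 region 2 to 0.022 and 0.024 (limma adjusted p = 0.84 and 0.88). Loess turned that of Tet1 region 2 to -0.37 and left 0.27 in Dnmt3a region 5 (limma adjusted p = 0.37). In Dnmt3a region 7 the authors' log2 ratios gave 0.21 (limma adjusted p = 0.45) and the filter on input alone 0.32 (limma adjusted p = 0.20), and in Tet2 region 2 the authors' log2 ratios gave 0.47 (limma adjusted p = 0.20).

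Of the 198 member probes 40 (20.2%) were higher and 21 (10.6%) lower (limma adjusted p), against 22.4% and 23.6%, or 46% in either direction, of all probes of the array. With the mode as zero, 12 member probes were higher and 75 lower. Normexp gave 34 higher and 37 lower, and the filter on input alone 34 higher and 32 lower of 136 probes. Without arrays 1, 2 and 3 in turn, 25, 16 and 26 were higher and 21, 6 and 11 were lower. The highest lay at the downstream end of Tet1 region 1 (chr10:62342569-62342628), at 3.26, 2.64 and 2.64 (2.85 ± 0.36, limma adjusted p = 0.0038), followed by its upstream neighbour (chr10:62342683-62342742) at 2.40, 2.53 and 2.18 (2.37 ± 0.18, limma adjusted p = 0.0038). The middle probe of that region (chr10:62342804-62342854) had 1.84, 1.80 and 1.82 (1.82 ± 0.02, limma adjusted p = 0.0043). Bound DNA was above background on all 3 arrays at each of these 3 probes, and input on 1 array at the first and on all at the others. The 2 remaining probes of the region, at 0.16 and 0.50, were not called, so the called probes were the downstream 3.

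Elsewhere a few strong probes stood among weak ones. In Dnmt3b 6 of 18 probes were higher and 1 lower, and the highest (chr2:153474869-153474915), at 1.27, 1.15 and 1.03 (1.15 ± 0.12, limma adjusted p = 0.0114), lay next to the lower one (chr2:153474801-153474845), at -0.86, -0.53 and -0.69 (-0.69 ± 0.17, limma adjusted p = 0.0492). In Tet3 5 of 27 probes were higher and none lower (limma adjusted p), although 2 were lower at an unadjusted p under 0.05. The higher ones were 2 probes at the downstream end of region 1 and 3 in the downstream part of region 2. The most downstream probe of Tet3 region 1 (chr6:83391503-83391547) stood at 1.55, 1.42 and 1.26 (1.41 ± 0.14, limma adjusted p = 0.0071), although the region's mean was at the median probe. In Dnmt3a region 2 a single probe (chr12:3860673-3860717) at 1.67, 1.86 and 1.89 (1.81 ± 0.12, limma adjusted p = 0.0044) rose above neighbours with negative levels. Among the 40 higher probes, 4 had neither channel above background on any array and thus no measured ratio, 1 each in Dnmt1 region 3, Dnmt3a region 7, the Dnmt3b region and Tet2 region 1. Among the 21 lower probes, 3 lacked bound DNA above background on every array, all in Dnmt3a regions 4 and 5. Over all members, 41 probes had bound DNA under the background on every array, and 24 of these had input under it too. Over the array these were 130225 and 58731 of 409559 probes. Both channels were above background on all 3 arrays at 98 of the 198 member probes, against 173292 over the array.

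**Figure D5:**
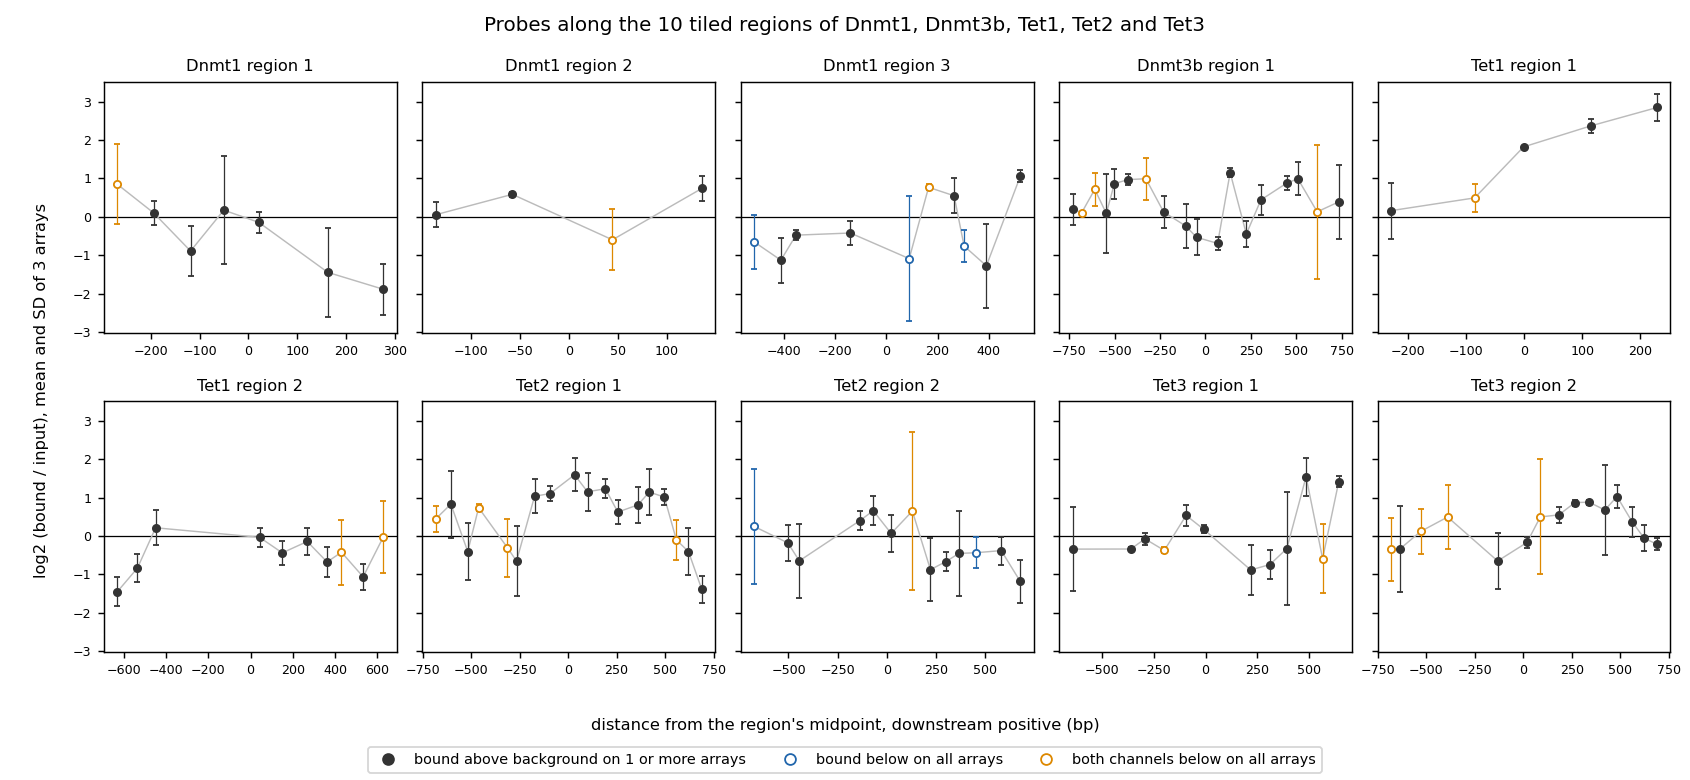
Probes along the 10 tiled regions of Dnmt1, Dnmt3b, Tet1, Tet2 and Tet3 (x axis, distance from the midpoint of the region in bp, downstream positive; y axis, log2 bound over input relative to the median probe), as means with SDs of 3 arrays; open symbols mark probes below background as in the key. Tet1 region 1 rises to 2.85 at its downstream end, and Tet2 region 1 is high in its middle, at 1.22, and low at its edges.

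Averaged over its regions, each gene gave 1 level for each array. The highest was Tet1, at 0.58, 0.56 and 0.43 (0.53 ± 0.08), although its 2 regions lie on opposite sides of the median probe. Dnmt3b followed, at 0.66, 0.16 and 0.21 (0.34 ± 0.28). Tet2 stood at 0.14, 0.31 and -0.06 (0.13 ± 0.19) and Tet3 at 0.23, 0.09 and 0.05 (0.12 ± 0.10), with Dnmt3a at 0.12, -0.12 and 0.01 (0.0031 ± 0.12). The lowest was Dnmt1, at -0.22, -0.07 and -0.32 (-0.20 ± 0.13). Its mean includes Dnmt1 region 3, and which gene that region belongs to was not analysed here. Of the 15 differences between genes 10 had the same sign on all arrays, but a two-sided exact permutation of the signs over 3 arrays gives no p under 0.25, and all 15 adjusted values were 0.375 or more. Neighbours in this order whose difference changed sign between arrays were Tet1 and Dnmt3b, Dnmt3b and Tet2, Tet2 and Tet3, and Dnmt1 and Dnmt3a. Dnmt3a was below Tet3 on all 3 arrays, by -0.12 ± 0.08. Dnmt1 was below Tet1, Tet2, Tet3 and Dnmt3b on all 3 arrays, by -0.73 ± 0.09, -0.33 ± 0.07, -0.33 ± 0.15 and -0.54 ± 0.33. The order depends on the processing. With loess Dnmt3b (0.45) was above Tet1 (0.38) and Dnmt3a (0.051) was below Dnmt1 (0.10). With only the probes above background in both channels the level was -0.43 for Tet1, whose region 1 then had no value, and 0.35 for Dnmt3a.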

How the data were processed

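Methylated DNA immunoprecipitation was measured on 3 two-colour arrays of 1 group. The deposited scanner files hold spot intensities from the software Agilent Feature Extraction (version 10.7.3.1), for a design on mm9, per the file headers. That software subtracted the background and normalised the dyes to give the processed intensities, per the file headers. The authors' deposited value table holds log2 ratios of the same spots, with no normalisation stated here. They tracked log2 of bound over input spot medians (r of 0.999 or more across spots) and had column medians near -0.97, so their direction is bound over input and their centring is not on 0. They served as an alternative.

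Each spot's value was the log2 of bound (Cy5) over input (Cy3) processed intensity. Spots with outlier flags were left out, spots of a probe were averaged, and the array's median over non-control probes was subtracted, with no loess or quantile step. Levels of regions, levels of probes, differences between regions with midpoints at most 130 kb apart, centre minus edges and the difference between the end segments (the first and the last of 3 equal lengths of a region, at least 2 probes in each) were each fitted for all features of the array with limma 3.58.1 in R 4.3.3 and adjusted over all of them. Fits were tested on simulated data. A planted shift of 1 log2 unit was recovered in 100% of regions and 83% of region pairs. It was recovered in only 40% of centre comparisons, 39% of end segment comparisons and 1% of probes. A shift of 3 was recovered in 100% of each. A probe or within-region difference that was not called may thus still hold a shift of 1. The windows, lists and tests were chosen with earlier results of these data known. Every region in the windows is named. Alternatives were normexp with offset 50, loess, the authors' log2 ratios, the mode as zero, filters on background, other joining distances, the median over probes, kept outlier spots and leaving out each array. Normexp ran on spot medians, since the files hold no spot means. Other genes of the pathway were not analysed here, because no table of build mm9 placed them. Sequences, strands and neighbouring genes come from RefSeq tables of GRCm38.p6, which matched all 6 genes.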

Additional observations from a re-analysis of the deposited data

How the results depend on the processing

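Each of the 39 called region levels, region differences and within-region differences was recomputed under the alternatives. Of 447 values 348 kept their direction and their call, 87 kept the direction but lost the call, and 12 reversed; the cause of these changes was not tested unless the alternative itself sets it, as a moved zero, fewer probes or fewer arrays do. The calls of Tet1 regions 1 and 2 held under every alternative that gave them a value. So did those of Tet1 region 1 minus region 2 and of Tet2 region 1 minus region 2. Dnmt3a region 1 minus regions 2, 4, 5 and 6 also kept their calls. The centre of Tet2 region 1 and the end segments of Dnmt1 region 1 and Dnmt3a region 7 kept theirs too. With the filter on both channels Tet1 region 1 and Dnmt3a region 4 had no value, and neither had their differences from other regions. The centre of Tet2 region 1 and the end segments of Dnmt1 region 1 and Dnmt3a region 7 had none there either. That filter therefore did not test these calls. Dnmt1 regions 1 and 2 had no value when probes were joined at 1000 bp, which merged them. Signal over background limits the levels of 41 of 198 probes, which had bound DNA under the background on every array. No paired analysis was possible because there was 1 group.

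With the mode as zero, 1 region was higher and 14 were lower, and 12 probes were higher and 75 lower. Levels that turned were Dnmt1 region 2 (-0.52), Dnmt3a regions 3, 6 and 7 (-0.60, -0.63 and -0.63), the Dnmt3b region (-0.38), Tet2 region 1 (-0.25) and Tet3 region 2 (-0.47). Gene means became -0.92 for Dnmt1, -0.72 for Dnmt3a, -0.38 for Dnmt3b, -0.19 for Tet1, -0.59 for Tet2 and -0.60 for Tet3.

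With normexp 37 probes were lower, and the centre was higher in 3 regions and lower in 2. Dnmt3a regions 3 and 6 (-0.011 and -0.014), Tet3 region 1 (0.026) and the centre of Dnmt3a region 5 (-0.072) turned, and the Tet1 mean was 0.21. With loess 2 regions were lower, the centre was lower in 2 and the downstream end higher in 3. Dnmt1 region 3 (0.12), Tet2 region 2 (0.038), Tet3 region 1 (0.22) and the centres of Tet1 region 2 (-0.37) and Dnmt3a region 1 (-0.43) turned, and gene means were 0.10 for Dnmt1, 0.38 for Tet1 and 0.32 for Tet2. With the authors' log2 ratios 8 regions were higher, 1 was lower and 9 probes were lower. Dnmt3a region 2 (0.19), Tet3 region 1 (0.20) and the downstream minus upstream difference of Dnmt3a region 1 (-0.11) turned, and the means of Tet1 and Dnmt3a were 0.80 and 0.29.

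With only the probes above background in both channels 7 of 15 regions were higher and 3 lower. Only 5 centre and 5 end segment comparisons could be made, against 13 and 15 with all probes. The centre was higher in 2 and lower in 1, and the downstream end higher in 2 and lower in 1. Dnmt1 region 3 (0.39) and Dnmt3a region 1 minus region 7 (-0.081) turned, and gene means were 0.070 for Dnmt1, 0.35 for Dnmt3a, -0.43 for Tet1 and 0.31 for Tet2. With input above background 32 probes were lower and the centre was lower in 2 regions, and Dnmt3a regions 3 and 7 turned (-0.0034 and -0.017). With probes joined at 250 bp, which makes more and shorter regions, 27 pairs differed. More pairs were tested than at 500 bp, so the count cannot be set beside the 16 of 27 there. Among the shorter regions the centre was higher in 2 and lower in 1, and the downstream end was higher in 1. Dnmt3a regions 3 and 6 (-0.30 and -0.016), Tet3 region 1 (0.030), Dnmt3a region 3 minus region 5 (-0.18) and the end differences of Dnmt3a regions 3 (0.20) and 5 (-0.20) turned, and the means of Tet1 and Dnmt3a were 0.15 and 0.20. With the median over probes the downstream end was higher in 2 regions and the Tet1 mean was 0.69.

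Leaving out 1 array in turn gave 3 to 4 higher and 3 to 4 lower regions, 16 to 26 higher and 6 to 21 lower probes, 12 to 15 differing pairs, 1 to 4 regions with a higher centre and 2 to 4 with a higher downstream end. With 2 arrays the residual degrees of freedom are also fewer. The values that turned lay near 0, from -0.059 to 0.17 for Dnmt3a region 6, from -0.016 to 0.22 for Dnmt3a region 7, from -0.014 to 0.016 for Tet3 region 1 and from -0.054 to 0.064 for the Dnmt3a mean.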
